A study of Mus musculus with 18 samples.

Results

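Oxidative phosphorylation genes were followed in cKit-positive bone marrow cells of mice. The rule that defines them reads gene symbols and no measured value: the nuclear genes whose symbols mark subunits of complexes I to V, and the protein genes of mitochondrial DNA. The rule took 104 of the 41079 genes in the count tables, 91 nuclear and 13 mitochondrial. The nuclear genes comprised 41 of complex I, 4 of complex II, 8 of complex III, 20 of complex IV and 18 of complex V, and the mitochondrial genes 7 of complex I, 1 of complex III, 3 of complex IV and 2 of complex V. RNA was sequenced from cells that were wild type (WT) or carried AE9a, a shorter, leukemia-causing product of alternative splicing of AML1-ETO, the fusion of RUNX1 with RUNX1T1. Either group of cells was given DMSO, C16 or RE. There were 3 libraries in each of 6 groups and 18 libraries in all. The study's design text speaks of inhibiting WDR5 and MLL1, subunits of a histone H3 lysine 4 methyltransferase complex, but the labels do not say which compound acts on which, nor give the dose, the time, the AE9a construct or its promoter. Whether the libraries of a group came from separate animals is not in the labels, and all p-values therefore describe the spread among these libraries, which may be technical. Library totals ran from 16053727 to 27207748 fragments.

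Complexes I to IV form the respiratory chain of the inner mitochondrial membrane: I (NADH dehydrogenase) and II (succinate dehydrogenase) pass electrons to coenzyme Q, III (the cytochrome bc1 complex) passes them to cytochrome c, and IV (cytochrome c oxidase) to oxygen, while protons are pumped out. Complex V, the ATP synthase, uses the returning protons to make ATP. Most subunits are encoded in the nucleus and imported, a few are made inside mitochondria from mitochondrial DNA, and blood stem cells are known for leaning on glycolysis while progenitors and many leukemia cells use this pathway more.

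Many nuclear genes of the pathway carry sites for the nuclear respiratory factor NRF1, for ETS factors such as GABP, or for YY1 near their start. The promoters of 5 genes among those with the largest changes under C16 in AE9a cells are shown. These genes are 3 of the 4 largest nuclear rises (Atp5mc1, Ndufa5 and Sdhd) and the 2 largest falls of genes at 5 CPM or more (Ndufa6 and Ndufa1). Each runs 5′ to 3′ on the gene's strand from 250 bases before the start to 50 bases after it (RefSeq, GRCm38.p6), at chr11:96075582-96075881 (minus strand), chr6:24527477-24527776 (minus), chr9:50603800-50604099 (minus), chr15:82354242-82354541 (minus) and chrX:37191189-37191488 (minus). Capitals mark matches to the NRF1 motif (GCGCA, any base, then GCGC) and the ETS motif (CCGGAAG), searched on both strands.
Atp5mc1: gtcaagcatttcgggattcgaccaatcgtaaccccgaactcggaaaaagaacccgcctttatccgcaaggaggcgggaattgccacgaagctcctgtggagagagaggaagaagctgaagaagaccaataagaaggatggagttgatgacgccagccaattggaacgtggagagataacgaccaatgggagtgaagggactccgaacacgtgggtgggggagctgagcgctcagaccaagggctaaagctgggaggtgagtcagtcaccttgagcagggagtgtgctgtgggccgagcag
Ndufa5: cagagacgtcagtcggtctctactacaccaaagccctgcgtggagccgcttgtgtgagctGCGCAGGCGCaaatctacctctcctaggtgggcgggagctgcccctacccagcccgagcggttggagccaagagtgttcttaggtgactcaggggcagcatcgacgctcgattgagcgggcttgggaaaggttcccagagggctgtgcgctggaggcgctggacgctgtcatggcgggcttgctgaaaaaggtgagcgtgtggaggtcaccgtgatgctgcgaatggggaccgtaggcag
Sdhd: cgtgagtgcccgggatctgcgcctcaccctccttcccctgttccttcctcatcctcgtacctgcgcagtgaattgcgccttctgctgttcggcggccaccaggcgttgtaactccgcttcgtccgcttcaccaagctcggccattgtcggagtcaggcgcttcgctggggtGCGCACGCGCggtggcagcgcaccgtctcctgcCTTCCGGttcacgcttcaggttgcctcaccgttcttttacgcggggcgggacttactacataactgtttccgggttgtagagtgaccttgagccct
Ndufa6: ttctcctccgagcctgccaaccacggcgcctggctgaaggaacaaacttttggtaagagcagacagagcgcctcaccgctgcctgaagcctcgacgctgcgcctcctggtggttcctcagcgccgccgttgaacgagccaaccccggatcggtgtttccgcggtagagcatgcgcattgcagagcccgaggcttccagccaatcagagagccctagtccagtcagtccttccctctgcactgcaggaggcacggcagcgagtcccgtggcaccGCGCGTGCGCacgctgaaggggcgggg
Ndufa1: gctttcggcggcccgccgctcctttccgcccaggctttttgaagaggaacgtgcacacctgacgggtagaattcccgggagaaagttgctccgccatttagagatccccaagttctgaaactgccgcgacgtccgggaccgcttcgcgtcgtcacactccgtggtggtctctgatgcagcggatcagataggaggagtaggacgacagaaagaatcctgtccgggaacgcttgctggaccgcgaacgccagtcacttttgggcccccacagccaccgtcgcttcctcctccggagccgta
Sdhd, which rose, held both motifs, Ndufa5, which rose, and Ndufa6, which fell, held the NRF1 motif, and Atp5mc1 and Ndufa1 held neither. The promoter of Ndufa12, the other of the 4 largest rises, is not shown and also held neither. Of the 91 nuclear genes, 69 were found in the promoter table (56 by symbol and 13 by an older symbol). The NRF1 motif was in 23.19% of these 69 promoters against 4.78% of all 27025 in the table, the ETS motif in 21.74% against 9.12%, and the YY1 motif AAGATGGCG in 8.7% against 1.49%. At least 1 of the 3 stood in 46.38% of the members' promoters and in 14.04% of all. Among members that rose under C16 in AE9a cells 51.92% of 52 promoters held at least 1 motif, and among members that fell 2 of 5 did. A match is a stretch of letters and not a shown binding site.

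Some libraries stood apart or went against their labels. For results that rest on these libraries, counts of members called are given with and without them, while most other values are given only with them. The 3 WT libraries numbered 2 had megakaryocyte marker sums of 137 to 292 CPM (counts per 1000000 fragments, TMM-scaled) against 1818 to 7918 CPM in the other WT libraries, and neutrophil marker sums of 8556 to 16216 CPM against 2134 to 3095 CPM. By root mean square log2 difference over genes, WT C16 library 2 lay 0.456 to 0.471 from the AE9a C16 libraries, 0.476 from WT DMSO library 2 and 0.853 and 0.904 from WT C16 libraries 1 and 3. AE9a C16 library 3 lay 0.419 and 0.441 from the other 2 of its group, which lay 0.164 apart. Runx1t1, part of the fusion, was at 33.4 to 46.2 CPM in AE9a DMSO and at most 0.388 CPM in any WT library. In AE9a C16 libraries it was at 2.44, 4.22 and 0.211 CPM, so that the library labelled AE9a C16 3 fell within the WT range. Kit ranged from 59.6 to 128 CPM in WT DMSO, from 858 to 1191 CPM in AE9a DMSO and from 221 to 324 CPM in AE9a C16, and Ptprc, the leukocyte gene CD45, was above 199 CPM in all 18 libraries. Each genotype has its own count table and library batch may follow genotype, so that genotype and batch cannot be told apart. In RNA from a mixture, fewer cells of a type and less RNA per cell cannot be told apart either.

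In AE9a cells under C16, most oxidative phosphorylation genes rose, in all 5 complexes. By edgeR's quasi-likelihood test (adjusted p under 0.05 over 14704 genes, n = 3 and 3), 64 of 84 tested nuclear genes rose and 6 fell. Of all genes tested, 66.3% passed in either direction, 33.1% higher and 33.2% lower. The 84 exclude 7 members with too few fragments: Cox7b2, Cox7a1, Cox8b, Cox8c, Ndufa4l2, Ndufb11b and Ndufa11b. The median log2 change was 0.33 over the 84 nuclear genes and 0.00 over all genes tested. Genes of complex I rose in 30 of 39 cases and fell in 2 (median 0.34), those of complex II in 4 of 4 (0.34), of complex III in 7 of 8 (0.44), of complex IV in 9 of 15 with 2 falls (0.25) and of complex V in 14 of 18 with 2 falls (0.37). Among 17 well-studied subunits on a list of their own, catalytic and accessory ones alike, 16 rose and 0 fell, with a median of 0.48, and among the other 67 nuclear genes 48 rose and 6 fell, with a median of 0.31. Nuclear members took up 0.856% to 0.881% of fragments in AE9a DMSO libraries and 1.06% to 1.12% in AE9a C16 libraries.

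**Figure D1:**
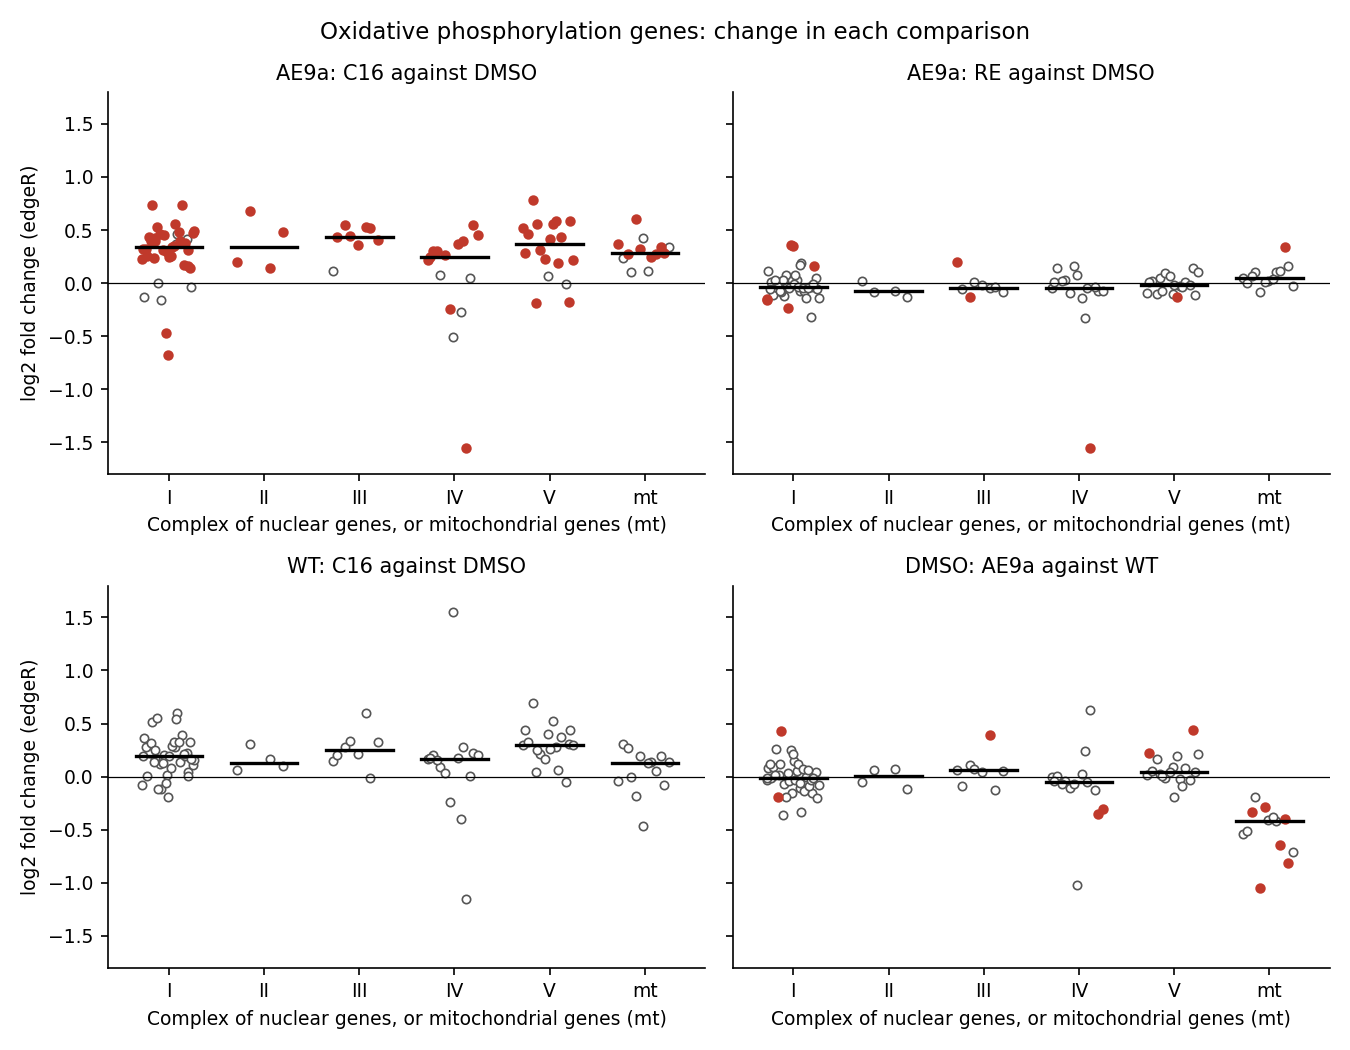
Log2 fold change of each tested member in 4 comparisons (y axis, edgeR), by complex for nuclear genes and for mitochondrial genes (x axis). Filled points have an adjusted p under 0.05, open points do not, and bars are medians. Under C16 in AE9a cells 64 nuclear genes are filled above 0 and 6 below, and in the panel of AE9a against WT all 13 mitochondrial genes lie below 0.

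The largest rises were in the rotor ring of ATP synthase, in accessory subunits of complex I and in complex II. Atp5mc1, which encodes subunit c of that ring (chromosome 11, 95963619 to 95966520, GRCm39), stood at 62.6, 69.5 and 56.0 CPM in AE9a DMSO libraries and at 110.7, 103.6 and 121.6 CPM under C16. All 3 C16 libraries lay above all 3 DMSO libraries, and the log2 change was 0.79 ± 0.09 (SE, edgeR adjusted p = 4.09e-05). Groups were apart in this way, in either direction, in 71.6% of all genes tested. Among nuclear members 67 lay above and 5 below. A second gene of subunit c, Atp5mc3, rose by 0.59 ± 0.05 (adjusted p = 6.40e-06), and the third, Atp5mc2, by 0.28 ± 0.04 (adjusted p = 0.000343). Ndufa5, an accessory subunit of the matrix arm of complex I (chromosome 6, 24518661 to 24527689), stood at 21.8, 22.8 and 22.2 CPM under DMSO and at 37.3, 40.8 and 37.4 CPM under C16. Its groups did not overlap and the spread within each was small, with a log2 change of 0.74 ± 0.05 (adjusted p = 4.17e-06). Ndufa12, another accessory subunit (chromosome 10, 94034897 to 94057302), rose by 0.73 ± 0.11 (adjusted p = 0.00028) and reached 60.1 CPM in C16 library 2 against 45.2 and 45.4 CPM in libraries 1 and 3. Sdhd, one of the membrane anchors of succinate dehydrogenase (chromosome 9, 50507640 to 50515149), stood at 125.1, 118 and 127 CPM under DMSO and at 195, 199 and 220 CPM under C16. These groups did not overlap either (0.68 ± 0.06, adjusted p = 7.22e-06).

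Of the 17 listed subunits 16 rose, each by less than Atp5mc1, Ndufa5 and Ndufa12. Atp5f1b, the catalytic beta subunit of ATP synthase and the nuclear member with the highest level per kilobase of exon in every group (chromosome 10, 127919176 to 127926257), rose from 1109 ± 26.4 to 1691 ± 37.9 CPM (SD, n = 3; log2 0.56 ± 0.04, adjusted p = 4.51e-06). The alpha and gamma subunits, Atp5f1a and Atp5f1c, rose by 0.58 ± 0.04 and 0.52 ± 0.04 (adjusted p = 2.7e-06 and 4.18e-06). In complex III the core proteins Uqcrc1 and Uqcrc2 rose by 0.54 ± 0.04 and 0.53 ± 0.03, and the Rieske iron-sulfur protein Uqcrfs1 by 0.52 ± 0.05. In complex I the iron-sulfur subunit Ndufs1 rose by 0.56 ± 0.04, and Ndufa9 and Ndufv1 by 0.46 ± 0.05 and 0.32 ± 0.04. Of the other complex II genes, Sdha, the flavoprotein that oxidizes succinate, rose by 0.48 ± 0.04, Sdhc by 0.20 ± 0.04 and Sdhb by 0.14 ± 0.04 (adjusted p = 0.0187). In complex IV, Cox5a rose by 0.46 ± 0.04 and Cox4i1 by 0.26 ± 0.05, and Cox6c was the 1 of the 17 that did not pass (0.05 ± 0.06, adjusted p = 0.454). The ATP synthase inhibitor Atp5if1 showed 0.07 ± 0.05 (adjusted p = 0.281), so that it did not pass.

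A few subunits fell in the same libraries. Ndufa1, a small membrane-arm subunit of complex I encoded on the X chromosome (36451241 to 36454891), stood at 31.1, 33.9 and 30.6 CPM under DMSO and at 19.9, 23.5 and 18.6 CPM under C16. Ndufa6, a complex I subunit of the LYR protein family (chromosome 15, 82234342 to 82238438), stood at 55.4, 66.9 and 53.4 CPM under DMSO and at 41.8, 46.5 and 43.4 CPM under C16. In both genes every C16 library lay below every DMSO library, with log2 changes of −0.67 ± 0.09 (adjusted p = 0.0001) and −0.47 ± 0.10 (adjusted p = 0.00213). The groups were apart, in either direction, in 71.6% of all genes tested. Cox7a2l, which takes part in joining complexes III and IV, fell by 0.24 ± 0.07 on the log2 scale (adjusted p = 0.0102), and the ATP synthase genes Atp5f1e and Atp5pb each fell by 0.18 (adjusted p = 0.0268 and 0.00824). The sixth, Cox6a2, the heart and muscle form of its subunit, was near the limit of counting, at 25, 32 and 20 fragments under DMSO and 11, 13 and 1 under C16. Counting ignored strand, and exons of 19 nuclear members share bases with exons of another gene, Ndufa1 among them (154 of its 494 exon bases lie opposite Gm39503), so the levels of these genes are uncertain.

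**Figure D2:**
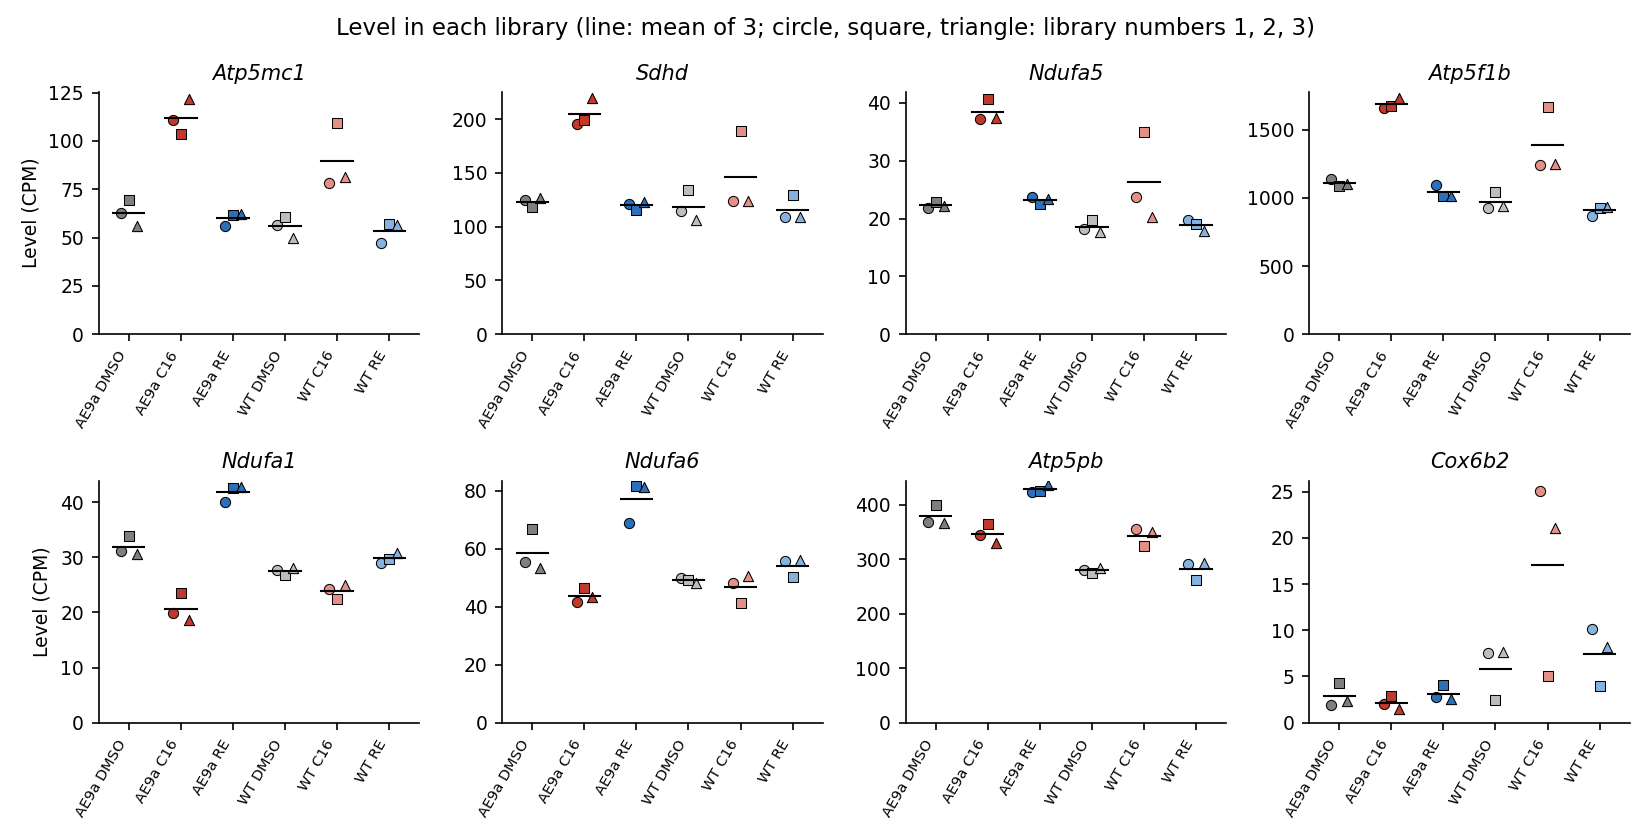
Level of 8 nuclear members in each library (y axis, CPM) by group (x axis), with symbols for library numbers and lines for means of 3. In AE9a cells Atp5mc1, Sdhd, Ndufa5 and Atp5f1b lie higher under C16 than under DMSO in every library, Ndufa1 and Ndufa6 lie lower under C16 and higher under RE, and the square of WT C16 lies apart from the circle and triangle in several panels.

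Of the 13 mitochondrial genes, 8 rose under C16 and 0 fell, with a median log2 change of 0.28. As a share, the 8 called are near the 66.3% of all genes tested that were called in either direction. Of all genes tested 33.1% were called higher. The other 5 mitochondrial genes had positive values from 0.10 to 0.43. Those that rose were the complex I genes ND1 (0.37 ± 0.07), ND2 (0.24 ± 0.06), ND3 (0.60 ± 0.13), ND5 (0.28 ± 0.06) and ND6 (0.34 ± 0.10), the cytochrome b gene CYTB (0.32 ± 0.07), and COX2 (0.28 ± 0.08) and COX3 (0.27 ± 0.10) of complex IV. COX1, the catalytic subunit of complex IV, stood at 9384, 8954 and 9574 CPM under DMSO and at 10439, 9962 and 10623 CPM under C16. The COX1 groups did not overlap, but the change of 0.10 ± 0.04 did not pass (adjusted p = 0.0578). ND3 stood at 7.24, 6.28 and 8.20 CPM under DMSO and at 11.6, 12.5 and 9.83 CPM under C16, again without overlap. Such a lack of overlap held for 71.6% of all genes tested. The 13 genes took up 1.76% to 1.94% of fragments in AE9a DMSO libraries and 2.03% to 2.18% in AE9a C16 libraries. The mitochondrial rRNA genes took up 0.105% to 0.108% of fragments under DMSO and 0.081% to 0.098% under C16, lower in all 3 C16 libraries.

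**Figure D3:**
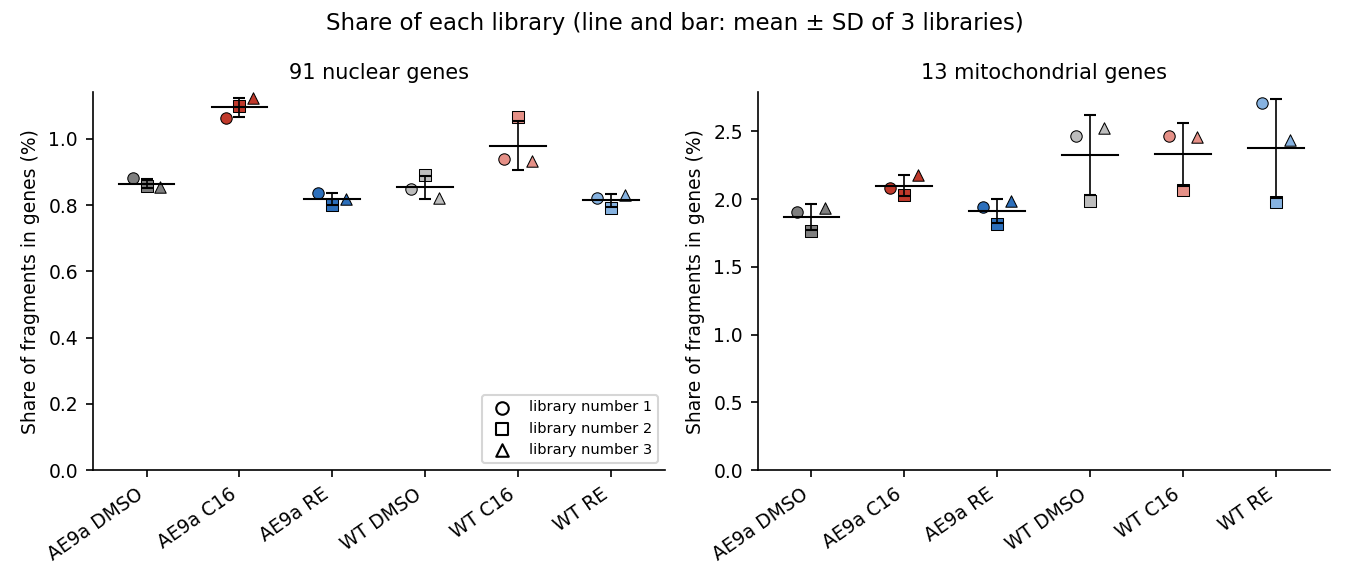
Share of fragments in genes (y axis, percent) taken by the 91 nuclear and the 13 mitochondrial members in each library, by group (x axis), with mean ± SD of 3 libraries. The AE9a C16 libraries lie above the AE9a DMSO libraries in both panels, and the WT libraries numbered 2 lie at 1.98% to 2.06% in the mitochondrial panel against 2.43% to 2.71% for the other WT libraries.

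Without AE9a C16 library 3, which stood apart, 67 nuclear and 9 mitochondrial members passed. Directions, medians, complexes, single genes and the share of all genes are not given without this library. Leaving out AE9a C16 library 1 or AE9a DMSO library 2 left 5 mitochondrial members each. Cell type markers moved in the same comparison. All 7 erythroid markers fell (summed level 225 to 278 CPM under DMSO and 1.37 to 18.6 CPM under C16), as did 6 of 7 mast cell and basophil markers (5665 to 7178 and 237 to 1375 CPM) and 5 of 6 megakaryocyte markers (186 to 263 and 24.2 to 81.4 CPM). The neutrophil sum was 3549 to 3867 CPM under DMSO and 7029 to 8855 CPM under C16, while 2 of its 6 markers were higher and 4 lower. Of 5 stem and progenitor markers, 4 were higher and 1 lower (1197 to 1486 and 728 to 809 CPM in sum). Their part in the change of the members was not tested.

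Lists of other genes of the pathway are read against the 33.1% of all genes that were higher and the 33.2% that were lower in AE9a cells under C16. All 13 tricarboxylic acid cycle genes rose (median 0.42), among them Suclg2 and Suclg1 of succinyl-CoA synthetase (0.87 ± 0.05 and 0.71 ± 0.04), the lipoamide dehydrogenase gene Dld (0.68 ± 0.05) and the fumarase gene Fh1 (0.55 ± 0.04). Of 17 genes for cytochrome c, electron transfer flavoproteins and coenzyme Q synthesis, 13 rose and 2 fell (median 0.48), and Pdss1, which makes the coenzyme Q side chain, rose by 0.89 ± 0.06. Of 46 tested assembly factors, 29 rose and 3 fell (median 0.27), with Ndufaf2, a complex I assembly factor, at 0.82 ± 0.09. Of 23 regulators of nuclear and mitochondrial transcription, 18 rose and 2 fell (median 0.33). The mitochondrial DNA-binding protein gene Ssbp1 rose by 0.67 ± 0.07 (adjusted p = 2.4e-05), and Lrpprc and Slirp, which stabilize mitochondrial mRNA, by 0.65 ± 0.05 and 0.62 ± 0.09. Ppargc1a, the coactivator PGC-1alpha, fell from 1.57 to 0.418 CPM (−1.96 ± 0.41, adjusted p = 0.00231), and its relative Ppargc1b rose from 12.1 to 18.9 CPM (0.60 ± 0.12, adjusted p = 0.0014).

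RE left most members near their DMSO level in AE9a cells. By edgeR, 4 of 84 nuclear genes rose and 6 fell, against 29.0% of all genes tested that passed, 12.2% higher and 16.8% lower. The median log2 change was −0.03 over nuclear members, 0.05 over mitochondrial members and −0.01 over all genes tested. Ndufa6 (0.36 ± 0.10, adjusted p = 0.0221) and Ndufa1 (0.35 ± 0.08, adjusted p = 0.0142) rose most, followed by Uqcrh, the hinge protein of complex III (0.20 ± 0.05), and Ndufa13 (0.17 ± 0.05). Ndufa1 stood at 40.1, 42.5 and 42.8 CPM under RE and Ndufa6 at 68.9, 81.6 and 81.2 CPM, in each gene above all 3 DMSO libraries. Ndufs8, an iron-sulfur subunit of complex I, fell by 0.23 ± 0.04 (adjusted p = 0.00558), and Ndufb3, Ndufv1, Uqcrc1 and Atp5f1b each fell by 0.13 to 0.16 on the log2 scale. Cox6a2 was the sixth, with 9, 9 and 5 fragments. Of the 13 mitochondrial genes 1 passed, ND6 (0.34 ± 0.10, adjusted p = 0.0352), which is the only one of them encoded on the light strand. Counting ignored strand, so fragments of the other strand's transcript at this place cannot be told from those of ND6. ND6 stood at 165, 142 and 140.2 CPM under DMSO and at 225, 190.1 and 169 CPM under RE, and its groups did not overlap. Between DMSO and RE the groups were apart, in either direction, in 49.1% of all genes tested.

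These small counts rested on single libraries. The 10 nuclear calls were 2 and 1 without AE9a DMSO libraries 1 and 3, and 6, 1 and 4 without RE libraries 1, 2 and 3. ND6 did not pass without DMSO libraries 2 or 3 or RE libraries 1 or 2 (adjusted p from 0.0756 to 0.11). Ndufa1 and Ndufa6 did not pass without DMSO libraries 1 or 3 or RE libraries 2 or 3 (adjusted p from 0.0513 to 0.0837). The split of directions moved with the scaling: edgeR called 7 nuclear genes higher and 5 lower with RLE size factors and 6 and 6 with scaling from nuclear genes alone, and DESeq2 called 7 and 3. With the library number as a block, which by the correlation check pairs DMSO and RE libraries of AE9a cells, 2 mitochondrial genes passed, ND6 and COX1. Of the tricarboxylic acid cycle genes 0 of 13 rose and 6 fell under RE, of the regulators 3 of 23 rose and 9 fell, of the assembly factors 1 of 46 rose and 3 fell, and of the carriers 2 of 17 rose and 4 fell. Ppargc1a rose from 1.57 to 4.29 CPM under RE (1.40 ± 0.31, adjusted p = 0.011). Of the marker lists under RE, 3 of 7 erythroid and 3 of 4 monocyte markers were lower, 1 of 6 neutrophil markers was higher and 2 lower, and 1 of 5 stem markers was higher and 2 lower. Their part was not tested.

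The direct comparison of C16 with RE in AE9a cells leaves the DMSO libraries out of its contrast. They still enter the filter, the scaling and the estimate of spread of that fit. Its C16 and RE libraries are those of the comparisons above. By edgeR, 63 of 84 nuclear genes were higher under C16 and 6 lower, with 74.6% of all genes tested passing, 37.5% higher and 37.2% lower, and 4 of 13 mitochondrial genes were higher. The medians were 0.38 for nuclear and 0.21 for mitochondrial members, and 0.01 for all genes tested. Atp5mc1, Ndufa12, Sdhd, Ndufa5 and Atp5f1a had the largest differences, from 0.69 ± 0.04 to 0.89 ± 0.09. Ndufa1 was lower under C16 than under RE by −1.02 ± 0.09 (20.7 ± 2.57 against 41.8 ± 1.46 CPM, adjusted p = 3.99e-06) and Ndufa6 by −0.82 ± 0.10 (43.9 ± 2.42 against 77.2 ± 7.25 CPM, adjusted p = 3.91e-05). Cox7a2l, Atp5pb and Ndufb1 were lower by −0.40 ± 0.07, −0.32 ± 0.05 and −0.24 ± 0.07. Without C16 library 2, C16 library 3 or RE library 3 the mitochondrial count was 6 in each case.

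In WT cells C16 gave positive values for most nuclear members, but none passed in the fit of all 9 libraries. By edgeR 0 of 84 nuclear and 0 of 13 mitochondrial genes passed, against 3.10% of all genes tested (0.957% higher and 2.15% lower). At an unadjusted p under 0.05 there were 32 nuclear and 0 mitochondrial genes, and DESeq2 called 15 nuclear genes, all higher, and 0 mitochondrial genes. The 3.10% belongs to the edgeR adjusted test, and shares of all genes are not given for these other counts. The median log2 change was 0.20 over nuclear and 0.13 over mitochondrial members and 0.01 over all genes tested, and 74 of the 84 nuclear values were positive. Each WT C16 library also lay above the DMSO library of its number: the median difference over nuclear members was 0.12, 0.20 and 0.21 for numbers 1, 2 and 3, with 66, 69 and 72 of the 84 genes higher.

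The WT libraries numbered 2 set the spread in that fit. With the library number as a block, 21 nuclear genes rose and 1 fell and 1 mitochondrial gene, ND5, rose. Of all genes tested 24.2% passed, 10.4% higher and 13.8% lower. By the correlation check of DMSO and C16, number 2 stood apart, but numbers 1 and 3 could not be told from each other. Without the 3 libraries numbered 2, the counts were 43 nuclear genes higher and 2 lower and again ND5, against 41.7% of all genes tested (20.8% higher and 20.9% lower). Without WT C16 library 2 alone 9 nuclear genes passed, a count for which the share of all genes is not given. Atp5mc1, the gene with the largest rise in AE9a cells, stood at 56.5, 60.9 and 49.9 CPM in WT DMSO libraries and at 78.2, 109.3 and 81.4 CPM in WT C16 libraries. All 3 C16 libraries lay above the DMSO libraries and library 2 was the highest, while groups were apart in 29.6% of all genes tested. The change of Atp5mc1 was 0.69 ± 0.15 (adjusted p = 0.0553) in the fit of 9 libraries, 0.68 ± 0.11 (adjusted p = 0.00677) with the block and 0.59 ± 0.09 (adjusted p = 0.00108) without the libraries numbered 2. Atp5f1b stood at 928, 1040.3 and 943 CPM in WT DMSO and at 1240.0, 1671 and 1246 CPM in WT C16 libraries (0.52 ± 0.14, adjusted p = 0.0804, and 0.41 ± 0.05, adjusted p = 0.00036, without the libraries numbered 2). Atp5if1 stood at 128, 140.3 and 119 CPM in WT DMSO and at 181, 140.0 and 189 CPM in WT C16 libraries, level in library 2 and higher in libraries 1 and 3. Megakaryocyte marker sums moved alike, from 2066 and 1818 CPM in WT DMSO libraries 1 and 3 to 7099 and 7918 CPM in WT C16 libraries 1 and 3, but from 207 to 137 CPM in libraries 2, with 0 of 6 markers called. Other marker sums were lower under C16 within each number: the monocyte sum went from 708, 1920 and 605 CPM to 315, 728 and 293 CPM in libraries 1, 2 and 3, the erythroid sum from 103.7, 27.0 and 105.7 CPM to 41.1, 6.93 and 43.2 CPM, and the mast cell sum from 3018, 2011 and 3368 CPM to 2663, 1294 and 2395 CPM, again with 0 markers of these lists called by edgeR. Their part was not tested.

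Cox6b2, the testis form of a complex IV subunit (chromosome 7, 4754791 to 4756093), was the member with the largest value in WT cells. It stood at 7.50, 2.42 and 7.62 CPM in WT DMSO libraries and at 25.02, 5.03 and 21.1 CPM in WT C16 libraries. Libraries 1 and 3 lay above all DMSO libraries and library 2 did not (1.55 ± 0.66, adjusted p = 0.214, 1.46 ± 0.21 with the block, adjusted p = 0.00487, and 1.61 ± 0.14 without the libraries numbered 2, adjusted p = 4.05e-05). In AE9a cells it showed −0.51 ± 0.35 (adjusted p = 0.231) at 1.43 to 4.32 CPM.

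Few members differed between AE9a and WT cells in their response to C16 by the test of the difference itself, a share near that of all genes. By edgeR in a fit of all 18 libraries, 7 of 84 nuclear genes had a more positive response in AE9a cells and 2 a more negative one. Of the 13 mitochondrial genes 0 passed, and of all genes tested 13.1% (4.78% more positive and 8.29% more negative). In this fit 69 of the 84 nuclear values were positive, with a median of 0.18 against 0.06 over all genes tested. At an unadjusted p under 0.05 there were 28 nuclear and 2 mitochondrial genes, and DESeq2 called 14 nuclear genes (12 more positive and 2 more negative) and 0 mitochondrial genes. For these counts the shares of all genes are not given. With scaling from nuclear genes alone edgeR called 4 and 2 nuclear genes. The 7 included Sdha (0.44 ± 0.12), Ndufb6 (0.42 ± 0.11), Ndufa4 (0.37 ± 0.10), Ndufa8 (0.33 ± 0.10), Cox5a (0.31 ± 0.08) and Ndufs3 (0.31 ± 0.08), and the 2 were Atp5pb (−0.42 ± 0.09) and Ndufa1 (−0.42 ± 0.12). Sdha (chromosome 13, 74470374 to 74498359) stood at 275, 299 and 285 CPM in WT DMSO and at 274, 364 and 279 CPM in WT C16 libraries, so that only library 2 was higher there, and at 257 to 269 CPM in AE9a DMSO and 372 to 400 CPM in AE9a C16 libraries. Atp5pb, a stalk subunit of ATP synthase (chromosome 3, 105850014 to 105866579), stood at 276 to 284 CPM in WT DMSO and 325 to 356 CPM in WT C16 libraries, and at 367 to 400.0 CPM in AE9a DMSO and 330.1 to 365 CPM in AE9a C16 libraries. Over the 84 nuclear genes fitted within each genotype, 69 had positive values in both, 7 negative values in both, 3 were positive in AE9a cells alone and 5 in WT cells alone, and 62 had the larger value in AE9a cells.

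**Figure D4:**
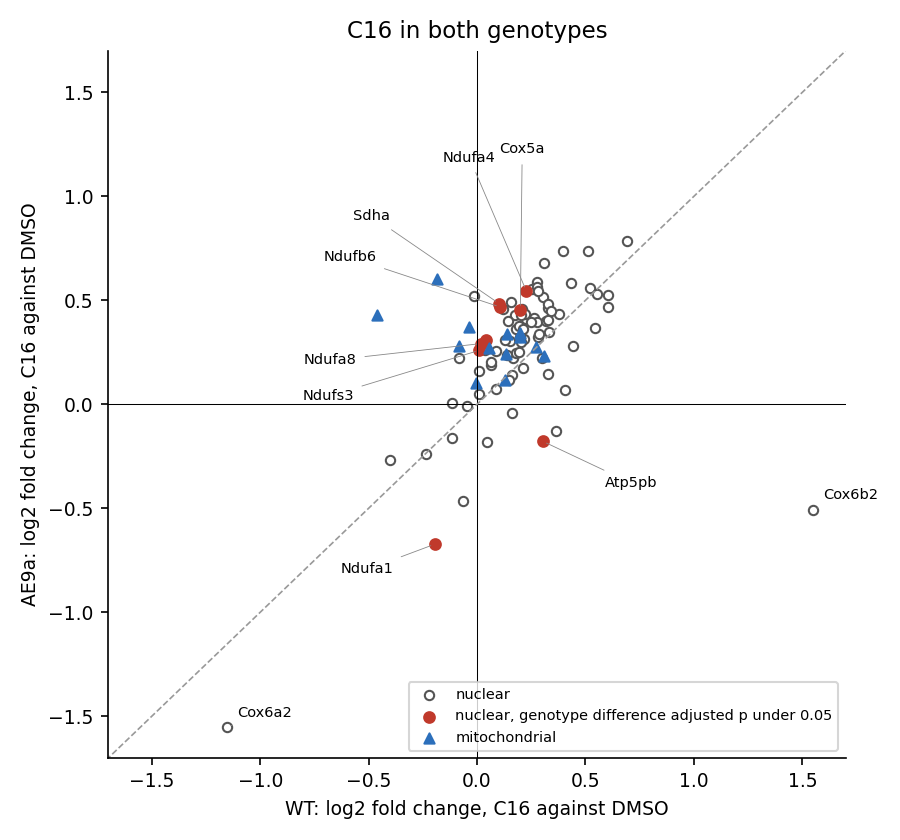
Log2 fold change of each tested member under C16 in WT cells (x axis) and AE9a cells (y axis), with a dashed line of equal change. Most nuclear genes lie right of and above 0, 62 of 84 lie above the dashed line, and the 9 red circles passed the test of the difference.

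This count of 9 depended on single libraries and ranged from 1 without AE9a C16 library 3 to 41 without WT C16 library 2. It was 2 to 5 without any other single library. For these single-library counts the shares of all genes are not given. With the library number as a block, 27 nuclear genes (23 more positive and 4 more negative) and 3 mitochondrial genes passed. Of all genes tested 36.8% passed, 19.4% more positive and 17.4% more negative. Without the 3 WT libraries numbered 2 the nuclear count was 45, 38 higher in AE9a cells and 7 lower, with 3 mitochondrial genes (ND1, ND3 and COX1) higher. Of all genes tested 49.8% then passed, 28.9% higher and 21% lower. All 9 were among the 45. Sdhd then differed by 0.57 ± 0.08 (adjusted p = 6.61e-05) and Uqcrfs1 by 0.71 ± 0.07 (adjusted p = 6.91e-06). Of the marker lists, 5 of 7 erythroid and 3 of 7 mast cell markers had a more negative response to C16 in AE9a cells, and 2 of 5 stem markers a more positive and 1 a more negative one. Their part was not tested.

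RE in WT cells gave no member that passed. By edgeR 0 of 84 nuclear and 0 of 13 mitochondrial genes passed, against 0.0266% of all genes tested, and the same holds for DESeq2. Without the WT libraries numbered 2, 0 members passed while 8.02% of all genes tested did. At an unadjusted p under 0.05 there were 0 nuclear genes and 1 mitochondrial gene. Median log2 changes were −0.03 and 0.03. For the genotype difference in the RE response, edgeR called 0 members of either genome and 0% of all genes tested, DESeq2 called 0 members, and 2 nuclear and 0 mitochondrial members had an unadjusted p under 0.05.

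Between the genotypes under DMSO, 6 of 13 mitochondrial genes were lower in AE9a cells, a count that was 0 when either of 2 single libraries was left out. All 13 mitochondrial genes had negative values, with a median log2 difference of −0.42, and those that passed by edgeR were ND3 (−1.04 ± 0.28), COX2 (−0.81 ± 0.25), COX3 (−0.64 ± 0.22), ND6 (−0.40 ± 0.13), ND5 (−0.34 ± 0.10) and CYTB (−0.28 ± 0.09). ND3, COX2 and COX3, with the largest differences, held only 0.051%, 0.553% and 0.296% of fragments in mitochondrial protein genes. ND6, ND5 and CYTB held 0.94%, 10.3% and 13.8%. COX1, which held 48.1%, differed by −0.19 and did not pass. Of all genes tested 26.7% passed, 12.9% higher and 13.8% lower, and the median over all was −0.05. CYTB did not pass with RLE size factors (adjusted p = 0.0712) or with scaling from nuclear genes alone (adjusted p = 0.0532). ND3 stood at 17.9, 8.32 and 18.5 CPM in WT DMSO libraries and at 7.24, 6.28 and 8.20 CPM in AE9a DMSO libraries. CYTB stood at 3032, 2719 and 3244 CPM in WT DMSO libraries and at 2525, 2293 and 2586 CPM in AE9a DMSO libraries. In both genes WT library 2 was the lowest WT library and stood near the AE9a libraries. The mitochondrial count was 0 without AE9a DMSO library 2 or WT DMSO library 1, 2, 4 and 1 without AE9a DMSO libraries 1 and 3 and WT DMSO library 3, and 10 without WT DMSO library 2. Without the 3 WT libraries numbered 2 it was 11, with 50.7% of all genes tested passing, and ND6 was not among them (adjusted p = 0.0643). For the counts without 1 library the shares of all genes are not given.

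Under DMSO, 4 of the 84 nuclear genes were higher and 3 lower in AE9a than in WT cells, with a median of 0.01. Of all genes tested 12.9% were higher and 13.8% lower, so nuclear members were called less often than genes in general. Atp5pb was higher by 0.44 ± 0.06 (379 ± 18.3 against 280 ± 4.0 CPM, adjusted p = 0.000145), Ndufc2 of complex I by 0.43 ± 0.12, Uqcrc2 by 0.39 ± 0.11 and Atp5mc2 by 0.22 ± 0.08. Ndufa4, an accessory subunit of complex IV despite its name, was lower by −0.35 ± 0.07 (adjusted p = 0.00209), Cox5a by −0.30 ± 0.06 (adjusted p = 0.00113) and Ndufb9 by −0.19 ± 0.06. Without the WT libraries numbered 2 the nuclear counts were 18 and 7, with 50.7% of all genes tested passing (24.8% higher and 25.9% lower). DESeq2 on all libraries called 8 and 3, a count for which the share of all genes is not given. Of the other lists, 3 of 23 regulators were higher and 1 lower, 4 of 46 assembly factors higher and 1 lower, and 0 of 13 tricarboxylic acid cycle genes passed by edgeR. Of the marker lists, 4 of 7 erythroid and 5 of 7 mast cell markers were higher and 1 of each lower in AE9a cells, 1 of 6 megakaryocyte markers was lower, and the stem list had 1 of 5 higher and 2 lower. Their part in the mitochondrial difference was not tested.

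Levels per kilobase of exon differed widely among members. In AE9a DMSO cells the median was 75.1 CPM per kb over the 84 tested nuclear genes and 288 CPM per kb over the 13 mitochondrial genes, with Atp5f1b highest among nuclear genes (590.3 CPM per kb) and COX1 highest of all (6022 CPM per kb). Mitochondrial genes are cut from long transcripts of both strands, yet their counts per kb were not alike. COX1 held 48.1% of all fragments in mitochondrial protein genes, and CYTB and ND1 held 13.8% and 13.5%. The 6 neighbouring genes COX2, ATP8, ATP6, COX3, ND3 and ND4L together held 1.39%, with medians over libraries of at most 160.4 CPM per kb, against at least 397 CPM per kb in each of the other 7. In each of the 18 libraries all 6 lay below all 7, on a run that the others flank on both sides. ATP8 and ATP6 share 43 bases, ND4L and ND4 share 7 and COX3 and ATP6 share 1, so fragments there cannot be given to 1 gene. COX2 and ND3 share no exon bases with another gene. The part of shared bases, and of how fragments were mapped and counted, in these low counts was not tested.

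**Figure D5:**
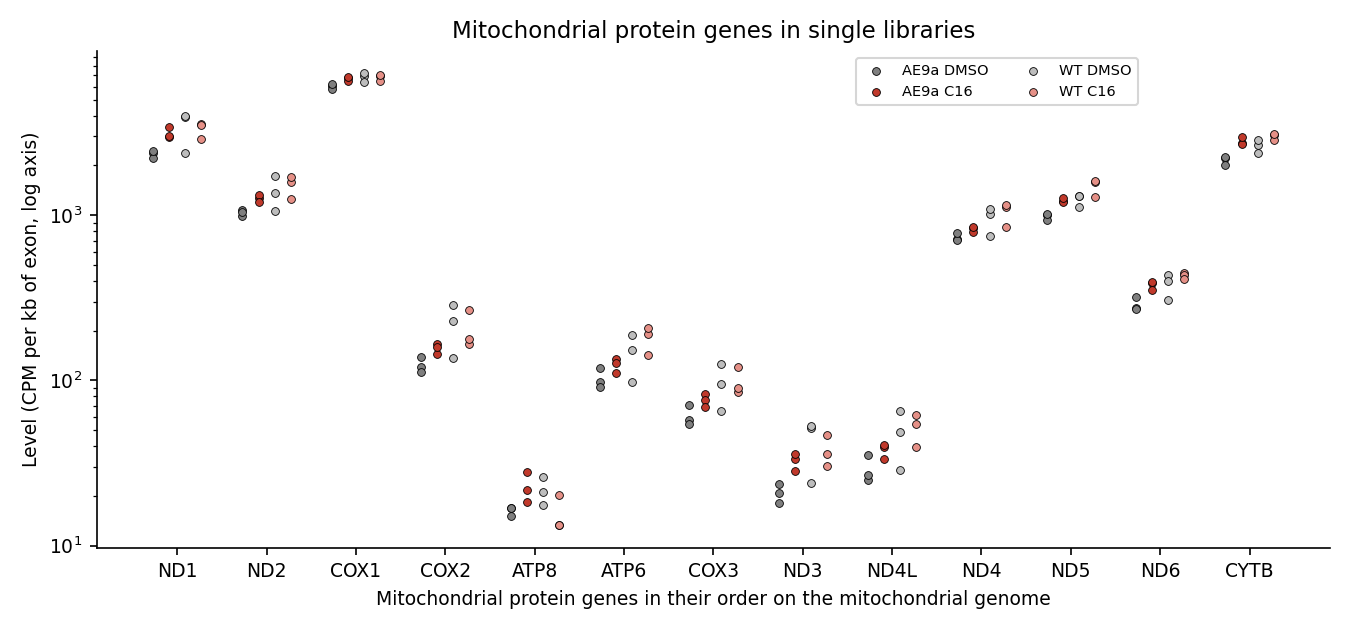
Level of the 13 mitochondrial protein genes per kilobase of exon (y axis, log scale) in single libraries of 4 groups, in genome order (x axis). The 6 genes from COX2 to ND4L lie below the 7 others in each group, and the AE9a DMSO group has the lowest mean for most genes.

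Forms of subunits known from other tissues stayed low. Cox4i2 (the lung form), Cox6a2 and Cox7a1 (heart and muscle forms) made up at most 0.753% of the summed level per kb with their general forms in any group. Cox6b2 made up 1.14% to 1.98% in AE9a groups and 3.97%, 9.54% and 5.01% in WT DMSO, C16 and RE. Cox8c had 0 fragments in all 18 libraries, Cox7b2 had 1 fragment in all and Cox8b at most 2 in any group. Ndufa4l2, a hypoxia-induced relative of Ndufa4, had 1 to 9 fragments per group against 5229 to 8701 of Ndufa4. Of these low forms, Cox4i2, Cox6a2 and Cox6b2 had enough fragments to be tested, and of the 3 only Cox6a2 passed by edgeR, under C16 and under RE in AE9a cells.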

How the data were processed

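RNA-seq fragment counts per gene were used as deposited, in 1 table per genotype of 9 libraries each. The submitters' processing notes list HISAT2 2.1.0, featureCounts 2.0.3, fastp 0.23.2, FastQC 0.11.9 and DESeq2, without roles; per the file headers, the deposited counts came from featureCounts 1.6.2, unstranded, summed over exons (GRCm39). The rule for members reads symbols alone, but the members and lists were chosen with earlier results of these data known.

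Counts were tested with edgeR 4.0.16 (R 4.3.3; TMM, filterByExpr, quasi-likelihood F test, Benjamini-Hochberg adjusted p under 0.05 over all genes tested) in fits of 9 AE9a libraries (14704 genes), 9 WT libraries (15046) and all 18 (15809, genotype comparisons); the scripts were tested on simulated data. SE is |log2 change| divided by the square root of F. CPM is TMM-scaled over 18 libraries. No 2 libraries were identical. Named genes are the mitochondrial genes, 17 well-studied subunits and tissue-specific forms on fixed lists, the 5 largest called rises and falls of nuclear members at 5 CPM or more in each comparison, and at most 4 genes per other list; Ndufs3, Ppargc1b, Atp5mc2 under C16 and the members named for WT C16 were chosen after their values were seen. Genes without enough fragments were left out of tests, and the values of 1 member are not reported here.

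Same-numbered libraries deviated together, each pair above all pairs of unlike numbers, in AE9a DMSO and RE (r = 0.476, 0.321 and 0.406), AE9a C16 and RE (0.141, 0.146 and 0.154) and WT DMSO and RE (0.711, 0.875 and 0.726). In WT DMSO and C16 (0.683, 0.794 and 0.681) this held for number 2 alone. WT libraries 1 and 3 also correlated across numbers (0.690 and 0.624 for DMSO and C16, 0.681 and 0.664 for DMSO and RE). Same-numbered libraries did not all stand above the others in AE9a DMSO and C16 (0.061, 0.339 and 0.233, against up to 0.137 for unlike numbers) or between genotypes (−0.058, −0.185 and −0.11). Alternatives were RLE size factors, scaling from nuclear genes alone, a filter of 10 fragments in 1 library, the replicate block, DESeq2 1.42.0, each library left out, and the WT libraries numbered 2 left out. Figures used Python 3.11.15 and matplotlib 3.10.9.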

Additional observations from a re-analysis of the deposited data

Results flagged for a closer look

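The response to C16 differed between AE9a and WT cells for 9 of 84 nuclear members by the test of the difference itself (edgeR, all 18 libraries), against 13.1% of all genes tested, and 8 of the 9 are given here. The difference, AE9a minus WT on the log2 scale, was 0.44 for Sdha (adjusted p = 0.032), 0.42 for Ndufb6 (0.025), 0.37 for Ndufa4 (0.0241), 0.33 for Ndufa8 (0.0464), 0.31 for Cox5a (0.0194) and 0.31 for Ndufs3 (0.0281). It was −0.42 for Ndufa1 (adjusted p = 0.0326) and −0.42 for Atp5pb (0.00693). Fitted within each genotype, the changes were 0.48 in AE9a and 0.10 in WT cells for Sdha, 0.47 and 0.11 for Ndufb6, 0.55 and 0.23 for Ndufa4, and 0.29 and 0.02 for Ndufa8. They were 0.46 and 0.20 for Cox5a, 0.26 and 0.01 for Ndufs3, −0.67 and −0.20 for Ndufa1, and −0.18 and 0.30 for Atp5pb. The fit of 18 libraries has its own scaling, so its differences need not equal those of the separate fits.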

How the results depend on the processing

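Alternatives gave 1224 values of single named members, taken only where the member had passed in the main fit. Of these, 1042 kept direction and still passed, 182 kept direction but no longer passed, and 0 reversed. The alternatives used most of the same libraries, so reversals were unlikely from the start. Comparisons without a call in the main fit, such as C16 in WT cells, gave no values here. Leaving out each library in turn gave 66 to 70 nuclear and 5 to 9 mitochondrial calls for C16 in AE9a cells, 1 to 8 and 0 to 1 for RE in AE9a cells, and 67 to 70 and 4 to 6 for C16 against RE. It gave 0 to 9 nuclear and 0 mitochondrial calls for C16 in WT cells, 0 and 0 for RE in WT cells, 4 to 6 and 0 to 10 for AE9a against WT, 1 to 41 and 0 to 1 for the genotype difference under C16, and 0 and 0 for that under RE. The 4 nuclear calls for AE9a against WT were those without AE9a DMSO library 2 or WT DMSO library 2. With the replicate block, 2 mitochondrial members passed under RE in AE9a cells, 22 nuclear and 1 mitochondrial under C16 in WT cells, 10 mitochondrial for AE9a against WT, and 27 nuclear and 3 mitochondrial for the genotype difference under C16. Of all genes tested, 31.2%, 24.2%, 29.1% and 36.8% passed with the block in these comparisons, in the same order. The block moved no other count by over 1.5 times. DESeq2 gave 2 mitochondrial calls under RE in AE9a cells, 15 nuclear under C16 in WT cells, 11 nuclear for AE9a against WT and 14 nuclear for the genotype difference under C16. Shares of all genes tested are not given for the DESeq2 counts or for those without 1 library. Without all 3 WT libraries numbered 2, the counts were 45 nuclear and 1 mitochondrial for C16 in WT cells, 25 and 11 for AE9a against WT, and 45 and 3 for the genotype difference under C16. Shares of all genes tested were then 41.7%, 50.7% and 49.8%, so genes in general gained calls as well. The cause of these moves was not tested. Low counts limit Cox6a2, Cox6b2, ATP8 and ND3.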
